A study of Mus musculus with 20 samples.

Results

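Genes that make, break down and sense prostaglandins, leukotrienes and bradykinin were examined in the cecum of mice fed raw potato starch (RPS), a source of resistant starch. The set is a list of 10 genes named by their function, with no threshold on their values, although it was drawn up with earlier results of these data known: Ptgs1, Ptgs2, Ptges, Hpgd, Ptger4, Alox5, Alox5ap, Alox12, Alox15 and Bdkrb2. They are 10 of the 19887 genes in the count table, and 9 of them were among the 15348 genes with enough counts to be tested. Alox15 was the member left out. Expression was measured by RNASeq in 20 C57BL/6 mice, 5 on each of 4 diets. Every animal started at 3 weeks of age on the total Western diet (TWD), a rodent diet modelled on the nutrients that Americans eat. After 6 weeks on the TWD alone, the mice ate for another 3 weeks either the TWD without RPS (0% RPS) or the TWD with 2, 5 or 10% RPS. Each library came from a separate mouse, numbered here from 1 to 5 within its diet. The RNA came from whole cecal tissue, so a lower level can come from fewer cells of a type or from less RNA per cell, and these cannot be told apart.

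Prostaglandins are short-lived lipid signals made on demand from arachidonic acid. A phospholipase frees the fatty acid from the membrane, a cyclooxygenase (Ptgs1 or Ptgs2) turns it into prostaglandin H2, and a terminal synthase such as Ptges makes prostaglandin E2, which acts on receptors such as Ptger4 and is inactivated by Hpgd. Lipoxygenases send the same fatty acid towards leukotrienes and hydroxy acids, with Alox5ap presenting it to Alox5. Bradykinin is a peptide cut from kininogens by kallikreins, and its main constitutive receptor, Bdkrb2, is known to stimulate prostaglandin release and fluid secretion in the gut.

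The libraries held between 14967798 and 42687283 counts. A floor of 3 counts equalled 0.190 CPM (the usual scaling of counts to library size, with TMM factors) in the smallest library and 0.0698 CPM in the largest, for counting error only. The 8 epithelial markers of the cecum and colon (among them Epcam, Cdx2 and Car1) summed to between 24710 and 42978 CPM in each mouse, and none was at 0 in any mouse. The median sum was lower on each higher dose (given by diet with the smooth muscle markers), but most of the sum was Car1.

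Per length of transcript, the members spanned a wide range of levels. The mean over the 20 mice was 64.1 RPKM (TMM-scaled CPM divided by the length of all exons in kilobases) for Hpgd, 12.8 for Ptgs1, 5.21 for Ptger4, 3.80 for Bdkrb2, 2.19 for Ptgs2 and 1.14 for Ptges. The lipoxygenase genes lay lower, at 0.801 RPKM for Alox5ap, 0.778 for Alox5, 0.361 for Alox12 and 0.0392 for Alox15. The gene for the enzyme that inactivates prostaglandins was therefore at a higher RPKM than the gene for either cyclooxygenase in all 20 mice. Neighbours in this order kept it in 17 to 20 of the 20 mice, except for Alox5ap and Alox5, whose order held in 9 of the 20, so that their levels did not differ beyond the spread.

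With 10% RPS, 2 of the 9 tested members were downregulated relative to 0% RPS and none was upregulated. These were Ptgs2, the inducible cyclooxygenase, and Bdkrb2, the bradykinin B2 receptor. A gene was called when its edgeR quasi-likelihood p, after Benjamini-Hochberg correction over all tested genes, was 0.05 or less and its fold change was 1.5 or more, and 1.04% of all tested genes (160) were called in this comparison. That count over all genes rested on single mice, dropping to 14 when mouse 3 of the 10% diet was left out and rising to 344 when mouse 2 of the 0% diet was. DESeq2's Wald test called the same 2 members and 1.99% of the 18520 genes to which it gave a p. At an unadjusted p under 0.05 the count was 3 of 9 members, against 19.5% of all tested genes. The estimate was lower than at 0% RPS for 8 of the 9 members, with a median log2 fold change of -0.14 against 0.00405 over all tested genes.

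With 5% RPS, 0 of the 9 members were called by edgeR (0.195% of all tested genes were), and 2 had an unadjusted p under 0.05 (13.3% of all). DESeq2's Wald test called 1 member, Ptgs2, there, and 1.3% of its 18520 genes. With 2% RPS, 0 members were called by edgeR and 0 by DESeq2 (0% of all tested genes were called by edgeR and 0.027% by DESeq2), and 1 had an unadjusted p under 0.05 (5.77% of all). For the slope per percent RPS, called by the adjusted p alone, 1 member, Bdkrb2, passed by edgeR (1.11% of all) and 2, Ptgs2 and Bdkrb2, by DESeq2 (3.81% of the genes it gave a p), and 4 had an unadjusted p under 0.05 (18.8% of all). The 3 comparisons share the same 5 control mice.

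**Figure D1:**
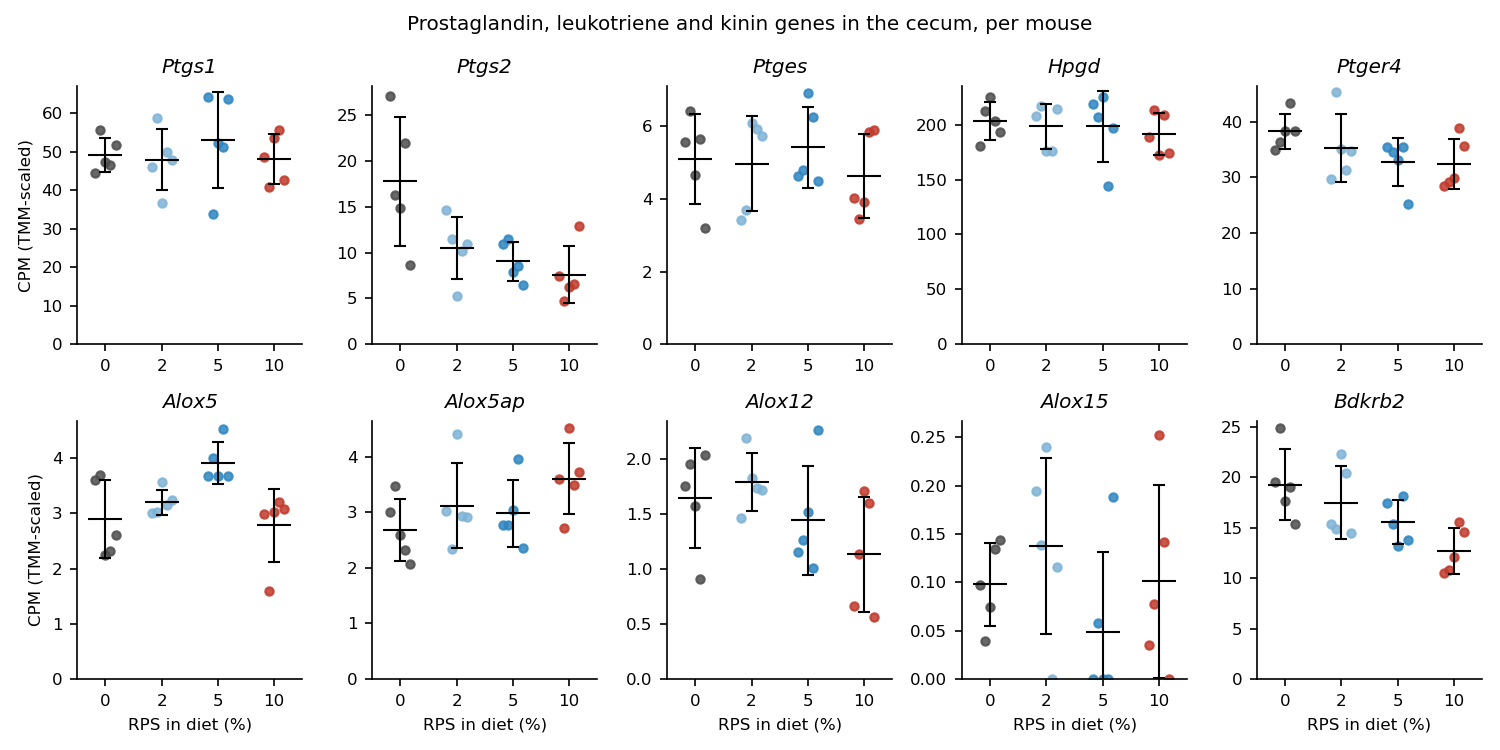
Expression of the 10 genes in each mouse (points), in TMM-scaled CPM on linear axes that start at 0, by percentage of RPS in the diet. Black bars give the mean and SD of 5 mice. The called genes Ptgs2 and Bdkrb2 lay lowest on average at 10% RPS, as did Ptges, Hpgd, Ptger4, Alox5 and Alox12, which were not called. Alox15 stayed at or below 0.253 CPM.

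Promoter bases are shown for the called genes Ptgs2 and Bdkrb2, and for Ptgs1, the paralog of Ptgs2 that was not called. The RefSeq promoter table (GRCm38.p6) held 8 of the 10 members, and each window was located by exact match on GRCm39. The window of Ptgs1 is shown whole, and that of Bdkrb2 up to its first annotated exon. The window of Ptgs2 lies within exons that GENCODE annotates, so only a stretch of 30 bases is shown, which begins just after the RefSeq start and holds the motifs named below. All are on the plus strand, 5′ to 3′, and capitals mark motif matches.
Ptgs2, chr1:149975785-149975814: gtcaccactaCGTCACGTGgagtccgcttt
Ptgs1, chr2:36120188-36120437: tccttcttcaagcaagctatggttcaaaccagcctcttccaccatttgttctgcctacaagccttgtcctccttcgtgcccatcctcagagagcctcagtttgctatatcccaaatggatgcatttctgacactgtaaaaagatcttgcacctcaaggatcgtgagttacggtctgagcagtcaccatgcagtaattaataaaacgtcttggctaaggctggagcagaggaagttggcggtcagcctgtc
Bdkrb2, chr12:105529181-105529382: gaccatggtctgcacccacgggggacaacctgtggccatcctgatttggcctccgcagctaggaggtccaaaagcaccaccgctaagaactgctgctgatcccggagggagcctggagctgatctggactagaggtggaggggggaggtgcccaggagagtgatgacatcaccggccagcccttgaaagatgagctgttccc
The motifs searched on both strands of the 250 bases before the start were the TATA box, spelled TATAAA here, the core of a cAMP response element, spelled TGACG, the E box, spelled CACGTG, the AP-1 element, spelled TGANTCA, the GC box, spelled GGGCGG, and the NF-kappaB consensus. The GC box was the only one that these windows held. It was found in Ptgs2, Ptges, Hpgd, Ptger4, Alox5 and Alox12 and in 32.7% of all 32851 promoters of the table, and none of the 6 motifs matched in Ptgs1 or Bdkrb2. In the capitals of the Ptgs2 stretch, TGACG (read on the minus strand) and CACGTG overlap by 2 bases. These matches fall in the 50 bases after the RefSeq start, a part of the window that was added after the sequences were seen, and in windows of 300 bases 20.8% of all promoters held the former and 7.15% the latter. A match is a description of letters, not of a site in use.

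Ptgs2 (ENSMUSG00000032487, GRCm39 chr1:149975194-149983978, plus strand) encodes cyclooxygenase 2, which many tissues make only when stimulated. Like Ptges, Alox5, Alox5ap and Alox12, it overlaps an annotated noncoding gene on the other strand, which was not analysed here. In mice 1 to 5 on 0% RPS its level was 27.0, 16.3, 14.9, 21.96 and 8.66 CPM, and on 10% RPS it was 7.42, 4.75, 6.23, 6.60 and 12.9 CPM. All but 1 of the mice on 10% RPS, mouse 5, lay below every mouse on 0% RPS, and the groups overlapped. The means were 17.8 ± 7.02 and 7.58 ± 3.13 CPM (SD, n = 5 each), and the level was 2.35-fold lower with 10% RPS by the fit (log2 fold change -1.23, SE 0.30, 95% interval -1.87 to -0.60, edgeR adjusted p = 0.0435).

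At the lower doses Ptgs2 lay between these levels. On 2% RPS the 5 mice had 14.6, 11.5, 5.21, 10.2 and 10.9 CPM, and on 5% RPS 10.99, 11.5, 7.87, 8.49 and 6.45 CPM. Of these, 1 mouse on 2% RPS and 3 on 5% RPS were below every mouse on 0% RPS. The log2 fold change was -0.76 with 2% RPS (SE 0.30, edgeR adjusted p = 0.842) and -0.97 with 5% RPS (SE 0.30, edgeR adjusted p = 0.141), so neither was called. The slope was -0.11 log2 units per percent RPS (SE 0.029, edgeR adjusted p = 0.0622). The order of the 4 diet means followed the dose, although by edgeR only the 10% diet passed the test against 0% RPS. By DESeq2's Wald test the 5% diet passed as well (adjusted p = 0.0421). The spread of Ptgs2 among mice on 1 diet was wide, with a coefficient of variation of 39.5, 32.4, 23.6 and 41.3% on 0, 2, 5 and 10% RPS, beside 9.09, 16.6, 23.4 and 13.5% for Ptgs1 in the same mice, so that the 2 genes were nearly equal in spread on 5% RPS.

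The call for Ptgs2 at 10% RPS was close to the threshold. It was lost when any 1 of 11 of the 20 mice was left out of the fit (mice 1, 3 and 4 on 0%, 2 and 5 on 2%, 1 and 3 on 5%, and 1 to 4 on 10% RPS), with edgeR adjusted p values of 0.0506 to 0.132 and log2 fold changes of -1.29 to -1.03. It was also lost with no filter on low counts (edgeR adjusted p = 0.0515) and in a fit of only the 2 diets compared (edgeR adjusted p = 0.0874), with log2 fold changes of -1.22 and -1.23. With a score of smooth muscle markers as covariate, described with those markers, it was lost and the estimate shrank to -0.76 (edgeR adjusted p = 0.265).

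Ptgs1 (ENSMUSG00000047250, chr2:36120438-36142287, plus strand), the constitutive cyclooxygenase, had 44.6, 55.6, 47.3, 46.5 and 51.6 CPM on 0% RPS and 48.6, 40.7, 53.6, 55.5 and 42.6 CPM on 10% RPS. Of the mice on 10% RPS, 2 were below all mice on 0% RPS and the other 3 were within their range. Its log2 fold change was -0.03 (SE 0.15, 95% interval -0.33 to 0.28, edgeR adjusted p = 0.945), and with 2 and 5% RPS it was -0.04 and 0.11 (edgeR adjusted p = 0.99 and 0.827). An interval of this width leaves room for a fold change between 0.795 and 1.21. The transcript overlaps a provisional gene model, Gm43621, on the other strand, which had 0 counts in every mouse.

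The ratio of Ptgs2 to Ptgs1 counts within a mouse does not depend on the scaling between libraries. It was 0.607, 0.294, 0.314, 0.473 and 0.168 in mice 1 to 5 on 0% RPS, and 0.153, 0.117, 0.116, 0.119 and 0.303 in those on 10% RPS. In 4 of the 5 mice on 10% RPS the ratio was below that of every mouse on 0% RPS. The mean log2 ratio differed by -1.18 (two-sided exact permutation test, p = 0.0238), with an adjusted p of 0.107 over 9 tests of 3 ratios in 3 comparisons, so the difference did not pass. The smallest p that 5 against 5 mice allow is 0.00794. For 5 and 2% RPS the differences were -0.98 and -0.68 (exact p = 0.0794 and 0.103, adjusted p = 0.179 and 0.186).

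Ptges (ENSMUSG00000050737, chr2:30779483-30820196, minus strand) encodes the inducible prostaglandin E synthase that often works with cyclooxygenase 2. It lay between 3.18 and 6.91 CPM in the 20 mice, and the range at 10% RPS (3.43 to 5.89) was inside that at 0% RPS (3.18 to 6.41). The log2 fold change with 10% RPS was -0.14 (SE 0.22, 95% interval -0.60 to 0.31, edgeR adjusted p = 0.763). Ptges was not called at any dose.

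Hpgd (ENSMUSG00000031613, chr8:56747543-56774082, plus strand) encodes the dehydrogenase that begins the inactivation of prostaglandins. It was the member with the highest level and the smallest coefficient of variation over the 20 mice (10.9%), with a mean of 203 ± 17.3 CPM on 0% RPS and 192 ± 19.0 CPM on 10% RPS (SD, n = 5 each). Over the 20 mice it ranged from 144 CPM (mouse 4 on 5% RPS) to 225 CPM. The log2 fold change with 10% RPS was -0.08 (SE 0.11, 95% interval -0.31 to 0.14, edgeR adjusted p = 0.713). The ratio of Ptges to Hpgd counts was 0.0166 to 0.0308 on 0% RPS and 0.0162 to 0.0338 on 10% RPS, a difference of -0.05 in the mean log2 ratio (two-sided exact permutation p = 0.857, adjusted p = 0.96).

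Ptger4 (ENSMUSG00000039942, chr15:5236142-5273673, minus strand) encodes the EP4 receptor for prostaglandin E2, which raises cyclic AMP and is known for protecting the intestinal epithelium. On 0% RPS the mice had 34.9, 36.3, 38.3, 43.4 and 38.3 CPM, and on 10% RPS 28.5, 29.1, 29.96, 38.8 and 35.6 CPM. With each of the 3 RPS diets, 3 of 5 mice lay below all mice on 0% RPS, while mouse 2 on 2% RPS, at 45.4 CPM, lay above all of them. The log2 fold changes were -0.12, -0.22 and -0.24 with 2, 5 and 10% RPS (edgeR adjusted p = 0.962, 0.441 and 0.269), so none was called. Part of the gene's exons overlap Ttc33 on the opposite strand, and the strand setting of the counting is not given in the sources used here. Ttc33 was at 6.31 ± 1.499 CPM on 0% RPS (SD, n = 5), and its log2 fold change with 10% RPS was -0.16 (edgeR adjusted p = 0.696).

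**Figure D2:**
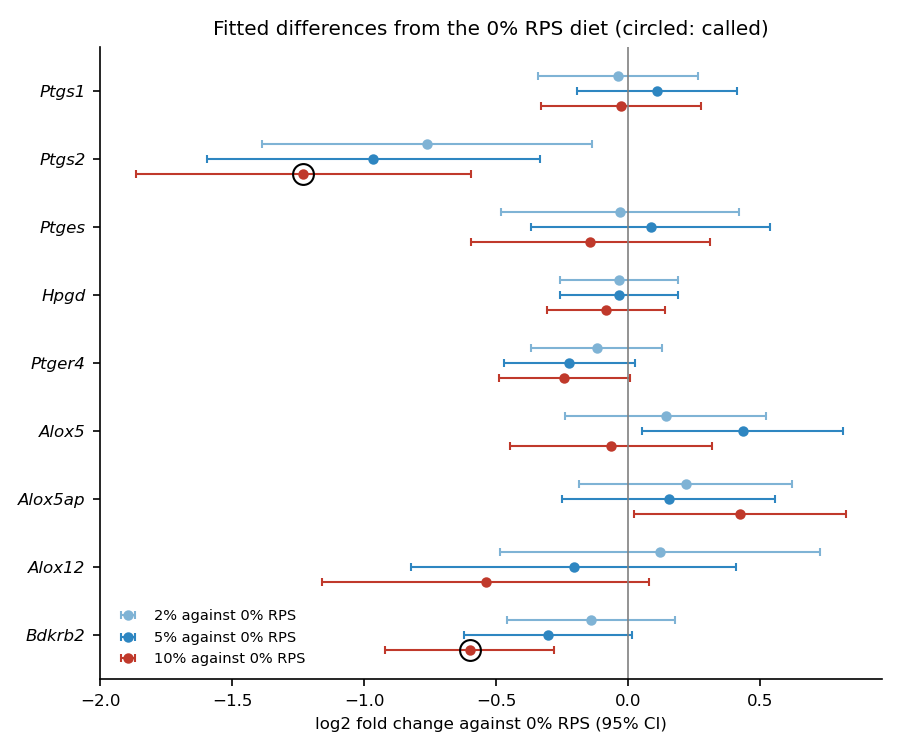
Fitted log2 fold change of each tested member against 0% RPS, with 95% intervals, for 2, 5 and 10% RPS (n = 5 mice per diet). Circles mark the called values, Ptgs2 at -1.23 and Bdkrb2 at -0.60 with 10% RPS. In this fit, which has no covariate, the estimates of both genes moved further from 0 with each higher dose.

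Alox5 (ENSMUSG00000025701, chr6:116387032-116438139, minus strand) encodes the 5-lipoxygenase that starts leukotriene synthesis, mostly in myeloid cells. Its level was low, with 3.61, 3.70, 2.25, 2.32 and 2.61 CPM on 0% RPS, 3.67, 4.002, 3.68, 4.53 and 3.68 CPM on 5% RPS, and 3.00, 1.60, 3.03, 3.204 and 3.08 CPM on 10% RPS. The highest value was on the 5% diet and the lowest on the 10% diet, and the groups overlapped. The difference from 0% RPS was 0.43 on the log2 scale at the 5% dose (SE 0.18, edgeR adjusted p = 0.295, though under 0.05 before adjustment), and -0.06 at the 10% dose (SE 0.18, edgeR adjusted p = 0.888). With 2% RPS it was 0.14 (edgeR adjusted p = 0.963).

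Alox5ap (ENSMUSG00000060063, chr5:149196003-149227762, plus strand), which encodes the membrane protein that hands arachidonic acid to Alox5, was the 1 tested member with a higher estimate at 10% RPS. The mice on 0% RPS had 2.99, 3.46, 2.59, 2.32 and 2.07 CPM, and those on 10% RPS had 3.59, 2.71, 4.52, 3.49 and 3.71 CPM. Of the latter, 4 of 5 lay above every mouse on 0% RPS. The log2 fold change was 0.43 (SE 0.19, 95% interval 0.02 to 0.83, edgeR adjusted p = 0.234), so the gene was not called, although it was under 0.05 before adjustment. With 2 and 5% RPS it was 0.22 and 0.15 (edgeR adjusted p = 0.949 and 0.821).

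Since Alox5ap and Alox5 act together, their counts were also set against each other within each mouse. The ratio of Alox5ap to Alox5 was 0.830, 0.936, 1.15, 1 and 0.792 on 0% RPS and 1.20, 1.69, 1.49, 1.09 and 1.21 on 10% RPS. On 5% RPS it was 0.755, 0.692, 0.829, 0.875 and 0.643. The ratios on 5% RPS all lay below those on 10% RPS, a difference between these diets that was not tested. Against 0% RPS, the mean log2 ratio was higher by 0.50 with 10% RPS (two-sided exact permutation p = 0.0159, adjusted p = 0.107) and differed by -0.31 with 5% RPS (exact p = 0.0476, adjusted p = 0.143). Neither passed the adjustment over the 9 tests, and the direction was not the same at both doses.

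**Figure D3:**
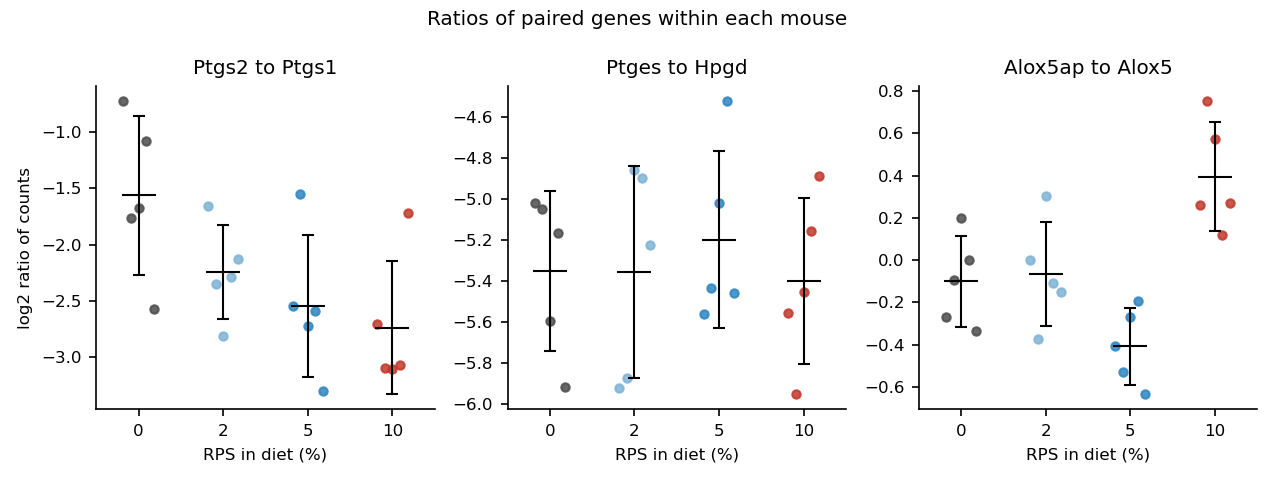
Log2 ratio of the counts of 2 genes in the same mouse (points), by percentage of RPS, with the mean and SD of 5 mice in black. The ratio of Ptgs2 to Ptgs1 had its lowest mean at 10% RPS, and the ratios of Alox5ap to Alox5 on 5 and 10% RPS did not overlap.

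Alox12 (ENSMUSG00000000320, chr11:70132283-70146221, minus strand) encodes the platelet-type 12-lipoxygenase. It lay between 0.563 and 2.26 CPM, and its mean was 1.65 ± 0.450 CPM on 0% RPS and 1.13 ± 0.523 CPM on 10% RPS (SD, n = 5 each). On 10% RPS, mice 1 and 5, at 0.662 and 0.563 CPM, were below every mouse on 0% RPS, and the other 3 were within that group's range. The fitted log2 fold change was -0.54 with 10% RPS (SE 0.30, 95% interval -1.16 to 0.08, edgeR adjusted p = 0.325), and the slope was -0.062 per percent RPS (edgeR adjusted p = 0.228). Of the platelet markers, Ppbp, Gp9 and Gp1bb were below the filter on low counts, and the 5 platelet markers together reached 4.50 to 6.61 CPM (0% RPS) and 5.25 to 7.27 CPM (10% RPS).

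Alox15 (ENSMUSG00000018924, chr11:70234970-70242858, minus strand), the 12/15-lipoxygenase of eosinophils and some macrophages, was at the limit of detection. It had 57 counts in all 20 mice together, with a highest count of 8, and 12 mice had 3 counts or fewer, of which 5 had 0. The filter on low counts left it out of the test, so nothing is said here of a difference between diets. The eosinophil markers were also low, with the 5 genes together at 1.95 to 5.81 CPM (0% RPS) and 2.87 to 5.70 CPM (10% RPS).

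Bdkrb2 (ENSMUSG00000021070, chr12:105529383-105561503, plus strand) was the second called member. On 0% RPS the mice had 19.5, 24.8, 17.6, 19.0 and 15.3 CPM, and on 10% RPS 10.5, 10.8, 12.0, 15.6 and 14.6 CPM. All but mouse 4 on 10% RPS lay below every mouse on 0% RPS. The means were 19.3 ± 3.52 and 12.7 ± 2.27 CPM (SD, n = 5 each), and the fit gave a level 1.52-fold lower (log2 fold change -0.60, SE 0.15, 95% interval -0.92 to -0.28, edgeR adjusted p = 0.0487).

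On 2% RPS Bdkrb2 had 15.4, 14.8, 22.3, 20.4 and 14.5 CPM, and on 5% RPS 17.4, 15.3, 13.1, 18.1 and 13.8 CPM. In each of these diets 2 mice were below all of those on 0% RPS. Its log2 fold change was -0.14 with 2% RPS (SE 0.15, edgeR adjusted p = 0.963) and -0.30 with 5% RPS (SE 0.15, edgeR adjusted p = 0.407). The slope of -0.059 log2 units per percent RPS (SE 0.014) was the 1 slope among the members that passed (edgeR adjusted p = 0.0445), and the diet means fell in the order of the dose.

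The call for Bdkrb2 was also close to the threshold. At 10% RPS it was kept without mouse 3 on 2%, mouse 4 on 5% or mouse 4 on 10% RPS, and lost when any 1 of the other 17 mice was left out (edgeR adjusted p = 0.0506 to 0.155, log2 fold change -0.66 to -0.49). It was also lost with no filter on low counts and in a fit of only the 2 diets compared (edgeR adjusted p = 0.0598 and 0.0697), and with the smooth muscle score as covariate, where the estimate shrank to -0.35 (edgeR adjusted p = 0.283). The call of the slope was lost without any 1 of 14 mice (mice 1 to 5 on 0%, 1 and 4 on 2%, 1 to 3 on 5%, and 1 to 3 and 5 on 10% RPS), with edgeR adjusted p values of 0.0503 to 0.135.

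Levels of smooth muscle markers were correlated inversely with those of both called genes. Of 5 markers (Myh11, Actg2, Des, Cnn1 and Smtn), edgeR called 1, Actg2, an actin of visceral muscle, which was higher with 10% RPS (log2 fold change 1.28, edgeR adjusted p = 0.0358) and with 5% RPS (1.53, edgeR adjusted p = 0.0425), and all 5 had higher estimates at each dose. DESeq2's Wald test also called Cnn1 with 10% RPS (adjusted p = 0.0237) and Cnn1, Des and Smtn with 5% RPS (adjusted p = 0.00465, 0.0366 and 0.0459), all higher. Their summed level was 1556 to 4019 CPM on 0%, 2256 to 4113 on 2%, 2995 to 7328 on 5% and 2697 to 4986 on 10% RPS, and none was at 0 in any mouse. Across the 20 mice, a smooth muscle score (the mean log2 CPM of the 5 markers) was correlated with Ptgs2 at Pearson's r = -0.67 (permutation p = 0.00126, adjusted over 2 relations 0.00148) and Spearman's rho = -0.72 (permutation p = 0.0005). For Bdkrb2, r was -0.65 (permutation p = 0.00148, adjusted 0.00148) and rho was -0.73 (permutation p = 0.00045). Without the 2 mice farthest from the median score, r was -0.71 and -0.79. Both genes were called lower with RPS, and of the marker lists only this one held a gene that edgeR called, which was higher. These choices by themselves favour an inverse correlation across the diets, so the p values are not separate evidence of a relation. The adjustment also leaves out the other members and marker lists.

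After the diet means were removed, r with the score was -0.46 for Ptgs2 (permutation p = 0.0403) and -0.51 for Bdkrb2 (permutation p = 0.0235, both 0.0403 after adjustment). The permutations made no allowance for the diet means removed, so these p values are too small. A relation among mice of the same diet is therefore not established. With the score as a covariate in the fit, an alternative added after the data were seen, the log2 fold change with 10% RPS was -0.76 for Ptgs2 (edgeR adjusted p = 0.265) and -0.35 for Bdkrb2 (edgeR adjusted p = 0.283). With 2 and 5% RPS it was -0.51 and -0.41 for Ptgs2 (edgeR adjusted p = 0.872 and 0.725) and -0.012 and 0.0027 for Bdkrb2 (edgeR adjusted p = 0.989 and 0.997), so the estimates no longer followed the order of the dose. None of the 15348 genes was called in that fit.

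The 8 epithelial markers did not pass the test by edgeR at any dose. Their summed level had a median of 37221 CPM on 0%, 33374 on 2%, 31539 on 5% and 29132 on 10% RPS, and the range was 35364 to 42494 CPM (0% RPS) and 24710 to 39690 CPM (10% RPS). Car1 made up most of this sum, at a mean of 25146 CPM on 0% and 18627 CPM on 10% RPS (log2 fold change -0.43, edgeR adjusted p = 0.0956). The estimates of the other markers with 10% RPS lay between -0.23 and 0.04. With 10% RPS, 7 of the 8 had lower estimates, with a median log2 fold change of -0.14, 2 were lower at an unadjusted p under 0.05 (against 19.5% of all tested genes), and Cdx2 had a log2 fold change of 0.04. The part of the epithelium in the lower levels of Ptgs2 and Bdkrb2 was not tested.

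**Figure D4:**
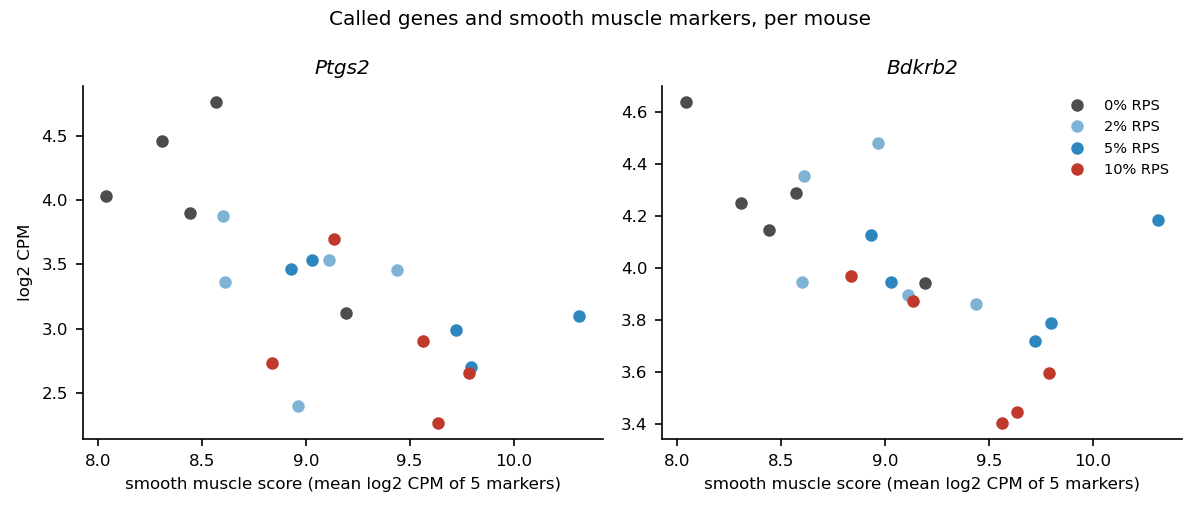
Log2 CPM of Ptgs2 (left) and Bdkrb2 (right) against the smooth muscle score, the mean log2 CPM of 5 markers, with 1 point per mouse coloured by diet. Both genes were lower where the score was higher (r = -0.67 and -0.65), and mice on 0% RPS had the lowest median score, 8.44.

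Of the 49 tested markers other than those of smooth muscle, the 8 epithelial ones among them, edgeR called 0 in any comparison. Over all tested genes it called 1.04% with 10%, 0.195% with 5% and 0% with 2% RPS, and 1.11% in the trend. With 10% RPS, 5 of the 49 were higher and 6 lower at an unadjusted p under 0.05, beside 19.5% of all tested genes. DESeq2's Wald test called Ly6g, a neutrophil marker, lower with 10 and 5% RPS (adjusted p = 0.0357 and 7.25e-05; edgeR adjusted p = 0.0969 and 0.051), and the collagen genes Col1a1 and Col3a1 higher with 5% RPS (adjusted p = 0.0134 and 0.0114). In the trend it called Car1 and Kdr lower (adjusted p = 0.0377 and 0.0365). Of all its genes, DESeq2 called 1.99% with 10% and 1.3% with 5% RPS, and 3.81% in the trend. The 7 macrophage markers all had higher estimates with 10% RPS (2 at an unadjusted p under 0.05, against 19.5% of all tested genes) and had sums of 158 to 223 CPM (0% RPS) and 201 to 251 CPM (10% RPS). The 5 fibroblast markers had sums of 302 to 423 CPM (0% RPS, median 363) and 373 to 604 CPM (10% RPS, median 501), and the 4 endothelial markers had 93.5 to 118 and 79.4 to 115 CPM. Of the fibroblast markers, 1 went the other way. This was Pdgfra, with a log2 fold change of -0.31 with 10% and -0.23 with 5% RPS (edgeR adjusted p = 0.183 and 0.452). With 10% RPS it was lower at an unadjusted p under 0.05. B cell markers varied most between mice, with a sum between 4.71 and 184 CPM (0% RPS) and between 13.01 and 241 CPM (10% RPS), and medians of 16.7 and 201 CPM. All 5 had higher estimates with 10% RPS that did not pass (log2 fold change 1.67 to 2.05, edgeR adjusted p = 0.371 to 0.474). Of the 7 neutrophil markers, 5 were below the filter on low counts, and Csf3r, the other tested one beside Ly6g, had a higher estimate that did not pass (log2 fold change 0.54 with 10% and 0.23 with 5% RPS, edgeR adjusted p = 0.469 and 0.876). The sum of the 7 lay between 1.501 and 19.3 CPM (0% RPS) and between 2.43 and 3.86 CPM (10% RPS). The 8 mast cell markers had sums of 40.8 to 82.3 CPM (0% RPS) and 37.9 to 57.4 CPM (10% RPS), the 7 tuft cell markers 28.7 to 44.6 and 26.9 to 53.8 CPM, and the 4 mesothelial markers 0.604 to 10.3 and 2.68 to 17.5 CPM (medians 1.204 and 9.04). Most of the mesothelial sum was Msln, with a mean of 2.32 CPM on 0% and 9.69 CPM on 10% RPS. Upk3b was at 0.436 and 0.468 CPM, and Wt1 and Lrrn4 were below the filter on low counts. The part of these cell types in the results for the members was not tested.

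The rest of the pathways was read from a list of 61 genes, of which 57 were in the table and 44 were tested. EdgeR called 0 of them with 10, 5 or 2% RPS or in the trend, whereas DESeq2's Wald test called 2 with 10% RPS and in the trend (Tbxa2r and Mgst2), 2 with 5% RPS (Mgst2 and Pla2g4c) and 0 with 2% RPS, beside 1.99%, 3.81%, 1.3% and 0.027% of all its genes with 10% RPS, in the trend, with 5% and with 2% RPS. With 10% RPS, 8 of the 44 had an unadjusted p under 0.05, 2 higher and 6 lower, beside 19.5% of all tested genes, and the median log2 fold change of the 44 was -0.03. The lowest edgeR adjusted p was 0.0554. With 5 and 2% RPS the counts were 3 and 2 of 44, beside 13.3% and 5.77% of all tested genes, and the lowest edgeR adjusted p values were 0.0597 and 0.815.

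Upstream of the cyclooxygenases, none of the 9 tested phospholipases was called by edgeR. With 10% RPS, the estimate that stood highest among them was that of Pla2g2d, a secreted phospholipase of lymphoid tissue, at 2.34 ± 2.04 CPM on 0% and 6.22 ± 2.40 CPM on 10% RPS (SD, n = 5 each), with a log2 fold change of 1.41 that did not pass (edgeR adjusted p = 0.204). Pla2g4c, another cytosolic phospholipase, had a log2 fold change of 1.49 with 5% RPS (edgeR adjusted p = 0.0597, DESeq2 adjusted p = 0.00378) and of 0.19 with 10% RPS (edgeR adjusted p = 0.81). Pla2g4a, the enzyme best known for releasing arachidonic acid, had a log2 fold change of 0.07 (edgeR adjusted p = 0.842). Among the 8 tested prostanoid synthases, Ptges2, a membrane-associated prostaglandin E synthase, was at 38.8 ± 3.34 CPM on 0% and 30.7 ± 2.42 CPM on 10% RPS (SD, n = 5 each). Its log2 fold change of -0.34 was below the fold threshold (edgeR adjusted p = 0.0586).

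Among the 5 tested prostanoid receptors other than Ptger4, Tbxa2r, the thromboxane receptor of platelets and smooth muscle, had the lowest edgeR adjusted p of the whole list. It ranged from 0.749 to 2.24 CPM (0% RPS) and from 2.07 to 3.51 CPM (10% RPS), with 1.24 ± 0.626 and 2.71 ± 0.548 CPM as means (SD, n = 5 each). Its log2 fold change of 1.12 was opposite in sign to that of Ptgs2 and just missed the threshold by edgeR (adjusted p = 0.0554) and passed it by DESeq2 (adjusted p = 0.0126). Cbr1, a carbonyl reductase that acts on prostaglandin E2, was at 188 ± 19.8 and 163 ± 14.9 CPM (SD, n = 5 each), with a log2 fold change of -0.20 (edgeR adjusted p = 0.212).

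In the leukotriene branch, Mgst2, a microsomal glutathione transferase that can make leukotriene C4, was at 245 ± 35.6 CPM on 0% and 161 ± 31.5 CPM on 10% RPS (SD, n = 5 each). Its log2 fold change was -0.60 with 10% and -0.71 with 5% RPS (edgeR adjusted p = 0.0784 and 0.0794). DESeq2 called both (adjusted p = 0.0223 and 0.009). Cysltr2, a receptor for cysteinyl leukotrienes, had a log2 fold change of -0.45 with 10% RPS (edgeR adjusted p = 0.222), and all 4 tested leukotriene receptors had lower estimates, with a median of -0.15.

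In the kinin system, the inducible receptor Bdkrb1 was at 0.216 ± 0.142 CPM on 0% and 0.450 ± 0.295 CPM on 10% RPS (SD, n = 5 each), near the floor of 0.190 CPM in the smallest library, and its log2 fold change of 1.05 did not pass (edgeR adjusted p = 0.281). Klk1, a tissue kallikrein that frees kinins, was at 163 ± 25.6 and 132 ± 9.72 CPM, with a log2 fold change of -0.30 (edgeR adjusted p = 0.144). Cpn1, the catalytic subunit of a carboxypeptidase that inactivates kinins, was at 240.2 ± 32.1 and 183 ± 32.6 CPM, with -0.39 (edgeR adjusted p = 0.137). Ace, which also degrades bradykinin, had a log2 fold change of -0.07 (edgeR adjusted p = 0.823).

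**Figure D5:**
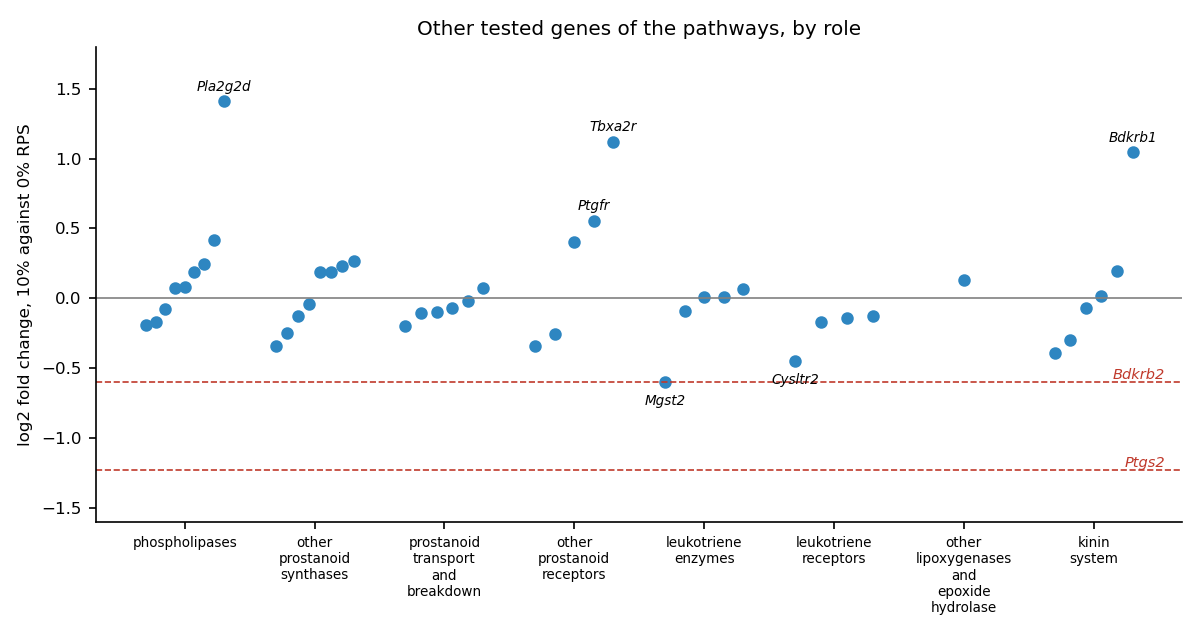
Log2 fold change with 10% against 0% RPS of the 44 other tested pathway genes (points), grouped by role. Dashed lines mark Ptgs2 (-1.23) and Bdkrb2 (-0.60). Points past 0.43 in either direction are named, and edgeR called none of the 44.

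Among themselves the 9 tested members varied largely apart from each other. Of 36 pairs, 0 had a correlation of log2 CPM across the 20 mice that passed the adjustment, and the median Pearson's r was 0.11. The pairs that stood furthest from 0 were Hpgd with Alox5ap (r = -0.55, permutation p = 0.0104, adjusted p = 0.207, rho = -0.50) and Ptges with Bdkrb2 (r = 0.54, permutation p = 0.0129, adjusted p = 0.207, rho = 0.48). The called genes Ptgs2 and Bdkrb2 had r = 0.50 (permutation p = 0.0255, adjusted p = 0.229) and rho = 0.49 (permutation p = 0.0285, adjusted p = 0.23), which fell to r = 0.36 without the 2 mice farthest from the median of Ptgs2 and to 0.11 after the diet means were removed. After that removal 3 pairs had an adjusted permutation p under 0.05: Alox5 with Alox5ap (r = 0.69, permutation p = 0.0007, adjusted p = 0.0252), Ptges with Bdkrb2 (r = 0.66, adjusted p = 0.0365) and Alox5ap with Bdkrb2 (r = 0.63, adjusted p = 0.0365). The permutations made no allowance for the diet means removed, so these p values are too small. The r values are a description, and none of these pairs is counted as passing.

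The genes whose pattern over the 20 mice was most like that of a called member are given as a description. For Ptgs2 these were Plau (r = 0.92), Grwd1 (0.88), Plk2 (0.88), Gtpbp4 (0.87) and BC016579 (0.87). Plau, the urokinase-type plasminogen activator, was at 32.4 ± 8.84 CPM on 0% and 13.6 ± 3.38 CPM on 10% RPS (SD, n = 5 each) and was itself called (log2 fold change -1.26, edgeR adjusted p = 0.00818), and its r with Ptgs2 was 0.87 after the diet means were removed. The other 4 were not called. For Bdkrb2 they were Arap3 (r = 0.80), Trgc4 (0.80), Mmp2 (0.80), Oasl1 (0.79) and Slc9a3 (0.78), none of them called, although Arap3 and Oasl1 passed the adjusted p (0.0289 and 0.0353 by edgeR) with a fold change below 1.5. These points share the library and the diet of each mouse.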

How the data were processed

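Total RNA from the cecum was sequenced by the authors as stranded poly(A) libraries with single-end reads. The authors trimmed low-quality bases, discarded reads holding more than 2 ambiguous bases, used CLC Genomics Workbench to map and count the reads on GRCm39, and deposited the raw counts per gene and mouse. The annotation release, the handling of reads that map to several places and the strand setting of the counting are not given in the sources used here, so counts of overlapping genes are less certain. Diets came from the sample labels.

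Gene names, positions and exon lengths came from GENCODE mouse release 39, which held 19827 of the identifiers and lacked 60. Low genes were removed by filterByExpr in edgeR (at least 10 counts, and 15 in total, by diet), scaled by TMM (factors 0.916 to 1.07) and fitted to the 4 diets with edgeR 4.0.16 (quasi-likelihood, robust) in R 4.3.3. P-values were adjusted over all tested genes. Log2 CPM used a prior count of 2, and ratios had 0.5 added to each count. Exact permutation tests enumerated 252 assignments, and correlations used 100000 permutations (scipy 1.17.1).

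The members and gene lists were chosen with earlier results of these data known. Named genes were the members, pathway genes with an unadjusted p under 0.05 at 10% RPS, and the 5 genes most correlated with each called member. Pla2g4a, Pla2g4c, Bdkrb1 and Ace were added after their values were seen. Alternatives were DESeq2 1.42.0 (size factors, Wald test), other filters, 1 surrogate variable (sva 3.50.0), a fit of only the diets compared, no fold threshold, the rank of the dose, other added counts, and each mouse left out.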

Additional observations from a re-analysis of the deposited data

Results flagged for a closer look

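Among 40 groups of 5 mice (10 members in 4 diets), 2 held a mouse far from the others by Dixon's criterion, and chance flags about 1 in 20 groups, or 2. For Ptger4, mouse 5 on 5% RPS had 25.2 CPM, while the other mice of that diet had 33.1 to 35.5 CPM. The gap to the nearest mouse was 0.770 of the group's range. For Alox5, mouse 2 on 10% RPS had 1.60 CPM, against 2.998 to 3.204 CPM in the other mice, a gap of 0.871 of the range. Without this mouse the log2 fold change of Alox5 with 10% RPS was 0.09 in place of -0.06.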

How the results depend on the processing

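The 2 called members with 10% RPS, Ptgs2 and Bdkrb2, stayed called with the size factors of DESeq2, its Wald test, a minimum of 10 counts in every mouse, 1 surrogate variable and no fold threshold (adjusted p 0.00231 to 0.0487). The count of called members was 0 with no filter on low counts (adjusted p = 0.0515 and 0.0598), 0 in the fit of only the 2 diets compared (0.0874 and 0.0697) and 0 with the smooth muscle score as covariate, which was added after the data were seen (0.265 and 0.283), and 0 to 2 with 1 mouse left out. With 5% RPS it was 1 by DESeq2's Wald test (Ptgs2, adjusted p = 0.0421). With 1 mouse left out it stayed at 0 with 5% and 2% RPS. In the trend it was 2 (Ptgs2 and Bdkrb2) by DESeq2's Wald test, with 1 surrogate variable and with the rank of the dose, 0 with no filter and with the smooth muscle score, and 0 to 2 with 1 mouse left out. Without mouse 3 on 2% RPS, Ptgs2 was called beside Bdkrb2, and without mouse 5 on 10% RPS it was called in place of Bdkrb2. The number of pairs with an adjusted permutation p of 0.05 or less rose from 0 to 3 after centring on the diet means. The p values after centring are too small, since they make no allowance for the means removed. The cause of these changes was not tested.

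With 1 mouse left out, the difference in log2 ratio with 10% RPS was -1.43 to -0.97 for Ptgs2 to Ptgs1, 0.41 to 0.57 for Alox5ap to Alox5 and -0.19 to 0.087 for Ptges to Hpgd. Changes of sign were seen only in comparisons where the member was not called, and most were of estimates close to 0, although Bdkrb2 with 5% RPS went from -0.30 to 0.0027 with the smooth muscle score. With 1 mouse left out, the log2 fold change with 10% RPS was -0.077 to 0.027 for Ptgs1 and -0.14 to 0.086 for Alox5. With 5% RPS it was -0.037 to 0.18 for Ptges and -0.082 to 0.060 for Hpgd, and with 2% RPS -0.12 to 0.042 for Ptgs1, -0.15 to 0.082 for Ptges, -0.073 to 0.0071 for Hpgd and -0.031 to 0.22 for Alox12. The slope per percent was -0.0036 to 0.0065 for Ptgs1 and -0.014 to 0.013 for Alox5. The ratio of Ptges to Hpgd was -0.018 to 0.24 with 5% and -0.15 to 0.14 with 2% RPS, and that of Alox5ap to Alox5 -0.058 to 0.11 with 2% RPS. With the smooth muscle score, signs changed for Ptges (0.018 with 10%, 0.065 with 2% RPS), Hpgd (0.047, 0.12 and 0.034 with 10, 5 and 2% RPS, slope 0.0014) and the slope of Ptgs1 (-0.0057). That slope was also -0.000197 with DESeq2's size factors and -0.000258 by its Wald test, and the slope of Alox5 was 0.017 per rank of the dose.

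No paired analysis was possible because each mouse has its own number in the sample labels, and the numbers 1 to 5 used here only name the mice within a diet. Alox15 and Bdkrb1 are limited by depth, and Alox12 had only 15 to 74 counts in each mouse.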
